A study of Mus musculus with 9 samples.

Results

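The genes described here encode the machinery that acidifies the lysosome, the proteases that work in it and the most abundant glycoproteins of its membrane: the vacuolar proton pump (V-ATPase), the cathepsins and the LAMP proteins. Members were chosen by symbol alone (Atp6v, Atp6ap, Cts followed by a single letter, or Lamp followed by a digit), which gave 42 of 17596 genes in the table. RNA was sequenced from splenic B cells of Mb1Cre mice (control) and Mct1f/fMb1Cre mice (Mct1-deficient), in which Cre expressed from the B-lineage gene Mb1 (Cd79a) removes a floxed segment of Mct1 (Slc16a1), the lactate and pyruvate transporter. The floxed line was made on a C57BL/6J background, every mouse carried the Cre allele, and neither age nor sex is given in the library labels. Naive cells (day 0) were compared with cells cultured for 3 days with LPS (10 µg/ml) and interleukin 4 (IL-4, 50 ng/ml), a treatment that drives proliferation and class-switch recombination. There were 2 control and 2 Mct1-deficient libraries on day 0, and 2 control and 3 Mct1-deficient libraries on day 3. Nothing in the labels ties a library to a mouse or litter, so p-values measure the spread between these libraries, which may be technical.

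The V-ATPase couples ATP hydrolysis in its cytosolic V1 sector to proton transport through its membrane V0 sector, and the low pH it creates activates most cathepsins. In B cells the same compartment breaks down internalised antigen and the invariant chain before peptides are loaded onto MHC class II. Several subunits have paralogs encoded by separate genes, and the a subunit of V0 determines to which membrane the pump is sent.

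Values are FPKM (fragments scaled to transcript length and to the number mapped in the library), so levels of different genes can be set side by side. A gene was tested if its mean over the 9 libraries was at least 1 FPKM, and a log2 fold change is that of FPKM + 1, which understates changes of low genes. A change was called when limma's adjusted p was under 0.05 over all 10823 genes tested and the log2 change exceeded 0.5 in size. Of the 42 members, 32 were tested: 9 V1 subunits, 6 V0 subunits, 2 accessory proteins, 13 cathepsins and 2 LAMP genes. The other 10 were Atp6v0a4, Atp6v0d2, Atp6v0e2, Atp6v1b1, Atp6v1c2, Atp6v1e2, Atp6v1g3, Atp6v1fnb, Ctsf and Lamp3. Atp6v1fnb is a neighbour of Atp6v1f that shares the symbol and is not known as a pump subunit. Among these low members, Lamp3 read 0.96 to 1.19 FPKM on day 0 and 0.03 to 0.17 on day 3, and Ctsf read 0.84 to 1.13 on day 0 and 0.03 to 0.07 on day 3.

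Slc16a1 read 22.58 and 22.95 FPKM in the control libraries of day 3 and 10.82, 9.81 and 9.50 in the Mct1-deficient ones (log2 change -1.11 ± 0.07 (SE), adjusted p = 9.07e-06; p = 0.2 in an exact permutation test, two-sided, where 3 against 2 libraries allow no less). On day 0 it read 4.33 and 3.80 in control and 3.71 and 4.06 in Mct1-deficient cells, which overlapped. The summed level of the B cell markers was 4346 to 4767 FPKM on day 0 and 2202 to 2292 on day 3. Transcripts of other cells were present on day 0: the summed level of the myeloid markers was 1448 to 2412 FPKM in naive and 18.7 to 33.9 FPKM in activated libraries, and Lyz2, lysozyme of macrophages and neutrophils, read 613.58 to 809.17 FPKM on day 0 and 10.04 to 20.36 on day 3. All 15 myeloid markers tested were called lower on day 3 in control cells, as were 7 of 8 B cell markers. Over all genes tested, 33% were called lower there. Myeloid markers were low on day 3, so some may have reached the mean of 1 FPKM only through day 0. The fall of such markers would be largely set by that filter. Macrophages and granulocytes hold many lysosomal proteases, and their part in the day 0 levels below was not tested; in bulk samples, fewer cells of a type and less RNA per cell cannot be told apart. Libraries of the 2 days also differed in Ddx3y, a Y-linked gene, which read 0.02 to 0.24 FPKM in 3 of the 4 naive libraries, 31.13 in the first Mct1-deficient naive library, and 14.69 to 16.91 in all activated libraries. In control cells it read 0.24 and 0.02 on day 0 and 14.69 and 16.53 on day 3. There this difference cannot be told apart from activation, also for the X-linked members Atp6ap1, Atp6ap2 and Lamp2.

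**Figure D1:**
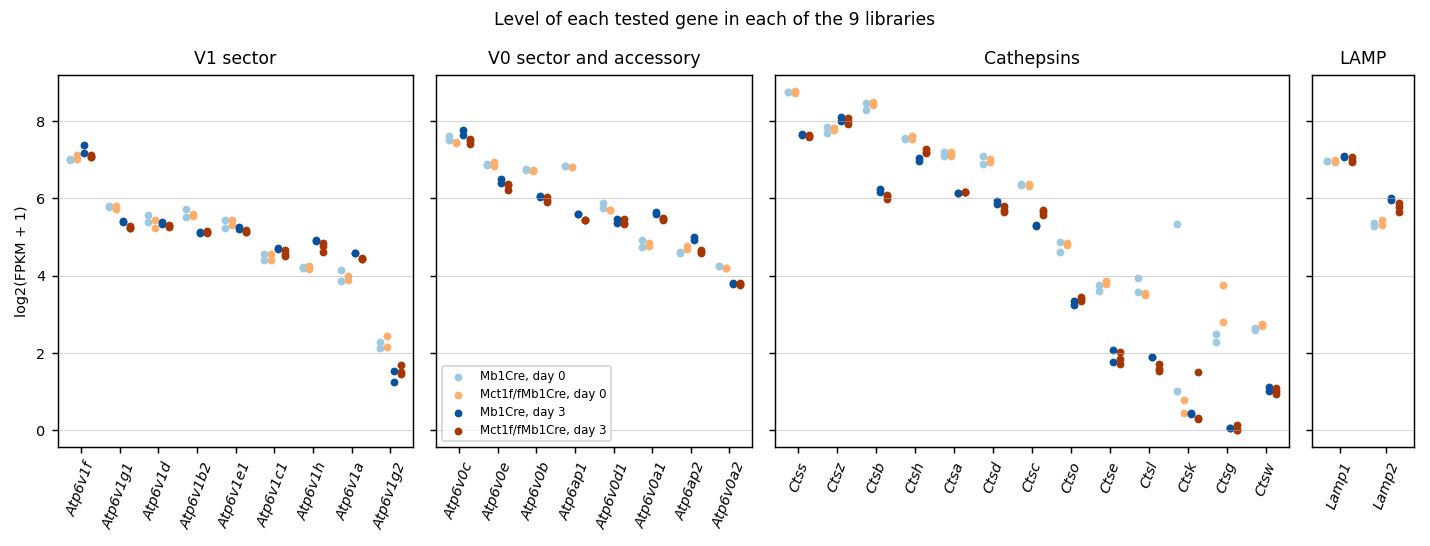
Level of each of the 32 tested genes, as log2(FPKM + 1) on the vertical axis, in each of the 9 libraries (1 point per library, colour by genotype and day), ordered within each panel by mean level. Cathepsin points of day 3 lie below those of day 0 for most genes, with Ctsz as the exception among the abundant ones, while pump subunits differ less between days.

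The first comparison asked how the compartment's genes differed between naive and activated control cells. Most cathepsins were lower on day 3, whereas the pump subunits matched by symbol went in either direction by smaller amounts. Tcirg1, a V0 a subunit gene whose symbol is not matched, fell more than these subunits (log2 change -1.52). Of the 32 members tested, 4 rose, 16 fell and 12 were not called. Over all genes tested, 57.8% were called, 24.8% higher and 33% lower. The median log2 change was -0.47 over the members and -0.12 over all genes tested. Of the 13 cathepsins, 12 fell. Ctsg and Ctsk, however, reached the filter on low values only through their day 0 levels, so that their fall was largely set by it. Where the mean had to reach 1 FPKM on each day, a filter chosen after seeing the data, 10 of 11 cathepsins fell, with a median log2 change of -1.11, and 29.4% of 9933 genes overall did. Of the 15 pump subunits, 3 rose and 3 fell, with a median of -0.11.

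Among the V1 subunits, the catalytic A subunit and the regulatory H subunit rose, and the B subunit and a minor stalk paralog fell. Atp6v1a read 16.65 and 13.46 FPKM on day 0 and 23.13 and 23.07 on day 3 (log2 change 0.59 ± 0.08 (SE), adjusted p = 3.54e-05). Atp6v1h read 17.55 and 17.27 FPKM on day 0 and 28.79 and 29.20 on day 3 (0.70 ± 0.07, adjusted p = 2.86e-06). In both genes, which are named because they were called, every activated library lay above every naive one. Atp6v1g2, the minor paralog of the stalk subunit G, read 3.86 and 3.41 FPKM on day 0 and 1.91 and 1.38 on day 3 (-0.81 ± 0.13, adjusted p = 1.21e-04). Atp6v1b2, the B subunit that forms the head together with A, fell from a mean of 48.3 to 33.7 FPKM, with a log2 change at the limit of the call (-0.50, adjusted p = 2.41e-05). The call of Atp6v1b2 ended without the first naive control library (-0.39) or the first activated one (-0.49) and with median-of-ratios scaling (-0.29), and that of Atp6v1a without the second naive control library (0.45) and with libraries scaled to the same total (0.40). The call of Atp6v1g2 ended after quantile normalization (-0.39). The remaining V1 members were not called: log2 changes were 0.26 for Atp6v1f, 0.21 for Atp6v1c1, -0.10 for Atp6v1d, -0.11 for Atp6v1e1 and -0.38 for Atp6v1g1, which encode the rotor subunits F and D, subunit C and the stalk subunits E and G.

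In the V0 sector, the a1 subunit rose and a ring subunit fell. Atp6v0a1 read 29.12 and 25.82 FPKM on day 0 and 47.38 and 49.01 on day 3 (0.79 ± 0.06, adjusted p = 1.74e-07). Atp6v0b, the c'' subunit of the proton-carrying ring, read 107.76 and 105.41 FPKM on day 0 and 65.51 and 64.06 on day 3 (-0.71 ± 0.05, adjusted p = 4.98e-08). Naive and activated libraries did not overlap for either gene, both of which are named because they were called. With median-of-ratios scaling the change of Atp6v0b was -0.499 and missed the limit. Atp6v0c, the main ring subunit and the most abundant pump transcript, had a mean of 187 FPKM on day 0 and 206 on day 3 and was not called (0.14). It was higher on day 3 with values as deposited but lower when libraries were scaled to the same total (-0.061) or quantile normalized (-0.099). Atp6v0a2, Atp6v0d1 and Atp6v0e, the a2, d and e subunits, had log2 changes of -0.44, -0.40 and -0.42, which were not called.

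The accessory proteins, which bind V0 and take part in its assembly, went in opposite directions. Atp6ap1 read 113.63 and 112.58 FPKM on day 0 and 47.20 and 47.61 on day 3, 2.39-fold lower on the FPKM scale (-1.24 ± 0.04, adjusted p = 1.31e-10). Atp6ap2, also known as the prorenin receptor, had a mean of 23.1 FPKM on day 0 and 30.2 on day 3 (0.37), below the limit of the call although its adjusted p was 5.73e-05.

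Of the LAMP genes, Lamp2 rose and Lamp1 was not called. Lamp2, whose splice forms include the receptor of chaperone-mediated autophagy, read 40.12 and 38.17 FPKM on day 0 and 61.26 and 63.12 on day 3 (0.65 ± 0.07, adjusted p = 4.83e-06); with libraries scaled to the same total its change was 0.46, under the limit. Lamp1 had a mean of 124 FPKM on day 0 and 135 on day 3 (0.12), and its difference turned to -0.086 with libraries scaled to the same total and to -0.12 after quantile normalization.

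**Figure D2:**
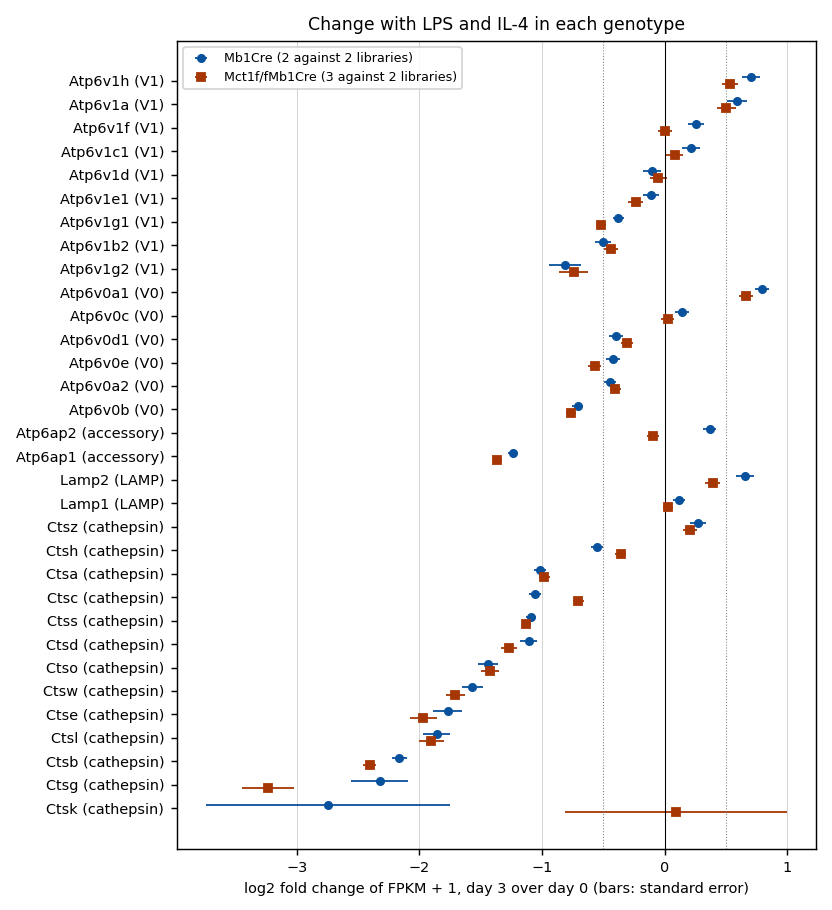
Log2 fold change of FPKM + 1 from day 0 to day 3 (horizontal axis) for each tested gene, with circles for control and squares for Mct1-deficient cells, bars of 1 standard error and dotted lines at the call limit of 0.5. Cathepsins carry the largest changes. The lowest points, near -3, belong to Ctsg and Ctsk, whose falls were largely set by the filter on low values. The largest falls of the other cathepsins are those of Ctsb (-2.16 in control and -2.41 in Mct1-deficient cells). Pump subunits lie on both sides of 0, and the wide bars of Ctsk come from 1 library.

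The cathepsins expressed most in naive cells were Ctss, Ctsb and Ctsz. Ctss, the protease that removes the invariant chain from MHC class II, read 425.87 and 427.23 FPKM on day 0 and 199.76 and 200.29 on day 3 (-1.09 ± 0.04, adjusted p = 6.01e-10). Ctsb, an endopeptidase and carboxypeptidase, read 312.71 and 349.53 FPKM on day 0 and 74.99 and 71.17 on day 3, 4.53-fold lower (-2.16 ± 0.06, adjusted p = 6.28e-11). Ctsz, a carboxypeptidase, was the exception: it read 207.09 and 229.72 FPKM on day 0 and 273.64 and 253.57 on day 3, a change of 0.27 that passed the adjusted p (0.00192) but not the limit. Over the sum of the 14 cathepsin genes in the table, Ctss made up 26.8% of the control FPKM on day 0 and 23.7% on day 3, Ctsb 20.8% and 8.64%, and Ctsz 13.7% and 31.1%. Ctsz was thereby the highest cathepsin transcript on day 3 and Ctss the highest on day 0.

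The other cathepsins with substantial levels fell less steeply than Ctsb. The aspartic protease Ctsd fell by 1.11 on the log2 scale, the dipeptidyl peptidase Ctsc by 1.06, the serine carboxypeptidase Ctsa by 1.01 and the aminopeptidase Ctsh by 0.55. At lower levels, Ctsl, an endopeptidase, fell from a mean of 12.6 to 2.73 FPKM (-1.86), Ctse, an endosomal aspartic protease, from 11.9 to 2.81 (-1.77), Ctso from 25.7 to 8.81 (-1.44) and Ctsw, known from cytotoxic lymphocytes, from 5.20 to 1.09 (-1.57). The summed level of the cathepsins was 1592 and 1595 FPKM in the naive control libraries and 830 and 862 in the activated ones. The count of 12 cathepsins was 11 with median-of-ratios scaling, where Ctsh (-0.34) was under the limit, and 11 after quantile normalization or with no filter on low values, where Ctsk was lost. It was 12 with libraries scaled to the same total.

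A pair of low cathepsins moved with genes of other cells. Ctsg, a serine protease of neutrophil and monocyte granules, read 3.89 and 4.64 FPKM in control and 12.54 and 5.98 in Mct1-deficient naive cells, and 0.00 to 0.11 in every activated library. Elane, neutrophil elastase, read 14.49, 16.16, 42.06 and 18.35 FPKM in the same naive libraries, and Mpo read 17.92, 19.94, 53.92 and 26.77. All 3 genes were highest in the first Mct1-deficient naive library. The log2 change of Ctsg with activation was -2.32 in control cells (adjusted p = 2.46e-06) and -3.23 in Mct1-deficient cells (adjusted p = 5.94e-08). Ctsg was tested only through its day 0 levels, so these falls were largely set by the filter on low values.

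Ctsk, the collagen-degrading cathepsin of osteoclasts, read 39.13 FPKM in the first naive control library and 1.03 in the second. It read 0.72 and 0.36 in naive Mct1-deficient libraries and 0.23 to 1.85 in activated libraries. The osteoclast paralog of the d subunit, Atp6v0d2, read 6.07 FPKM in that same library and 0.03 to 0.22 in the 8 others. So did genes of bone and matrix that were added after the values were seen: Col1a1 read 28.83 FPKM there and 0.49 to 2.67 elsewhere, Sparc 23.82 against 0.20 to 1.36, Mmp9 106.61 against 0.29 to 13.68, and Dcstamp, needed for osteoclast fusion, 2.80 against 0.00 to 0.11. The calcitonin receptor gene Calcr, another osteoclast marker, read 0.06 there and 0.00 elsewhere. Acp5, tartrate-resistant acid phosphatase, was highest there by less: 225.68 FPKM against 198.95, 175.06 and 173.53 in the other naive libraries. Tcirg1, also known from osteoclasts, read 64.33 there against 59.17, 56.58 and 56.10. The call for Ctsk rests on this library: its log2 change was -2.75 ± 0.99 with it (adjusted p = 0.0233) and -0.59 without it (adjusted p = 0.20). The adjusted p also missed the threshold without the first (0.0743) or the second (0.0716) activated control library, after quantile normalization (0.0518) and with no filter on low values (0.0824). Without that library 14 members fell and 4 rose in control cells.

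**Figure D3:**
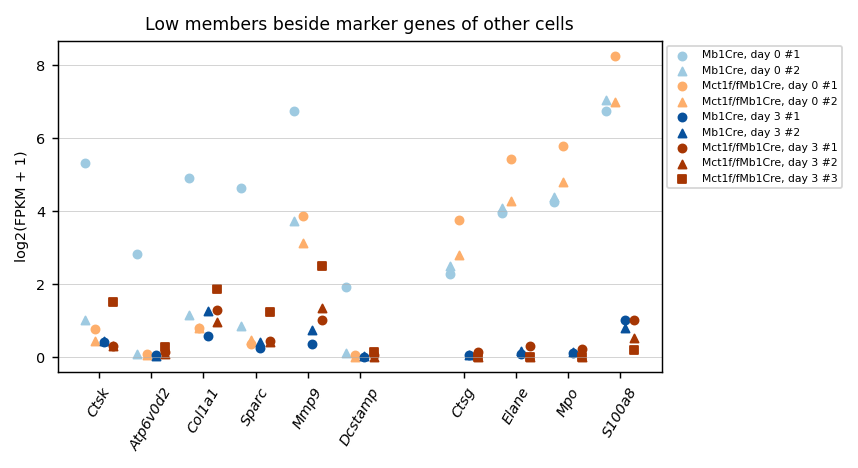
Log2(FPKM + 1) of Ctsk and Atp6v0d2 beside matrix and osteoclast genes (left block) and of Ctsg beside granulocyte genes (right block) in each library, with colour for genotype and day and marker shape for the replicate number. The first naive control library stands apart in all 6 genes on the left (Ctsk 39.13 FPKM), and the first naive Mct1-deficient library is highest in all 4 on the right (Ctsg 12.54 FPKM).

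In Mct1-deficient cells, the same comparison called 3 members higher and 15 lower, with 14 not called (all genes tested: 56.5%, 23.4% higher and 33.2% lower). Atp6v0a1 (0.66), Atp6v1h (0.53) and Atp6v1a (0.50) rose. Of the 13 cathepsins, 10 fell, with Ctsh (-0.36), Ctsz (0.21) and Ctsk (0.09) not called; with the filter on each day 9 of 11 did, and 29.7% of 9933 genes. Ctsb read 360.72 and 339.62 FPKM on day 0 and 66.85, 62.69 and 66.21 on day 3, 5.37-fold lower. Atp6ap1 read 111.21 and 110.42 FPKM on day 0 and 42.78, 42.31 and 42.24 on day 3 (-1.36 ± 0.03). Besides Atp6v0b (-0.76) and Atp6v1g2 (-0.74), the subunits Atp6v0e (-0.57) and Atp6v1g1 (-0.52) fell. The median over the members was -0.42, and over all genes tested -0.14. The rise of Atp6v1a, Atp6v1h and Atp6v0a1 depended on scaling in these cells: with libraries scaled to the same total 0 members were called higher, against 2 in control cells (Atp6v0a1 and Atp6v1h). Atp6v1a was also under the limit without the second naive (0.45) or the third activated (0.49) library of this genotype, and Atp6v1h without the first naive (0.48) or the first activated one (0.48). The fall of Atp6v1g1 was under the limit without the second naive library (-0.49), and with median-of-ratios scaling so were those of Atp6v1g1 (-0.30), Atp6v0e (-0.35) and Ctsc (-0.49); that of Atp6v1g2 was after quantile normalization (-0.30).

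The a subunit shifted between paralogs, which can be read within each library and does not depend on scaling. Atp6v0a1 made up 61.8% and 59.0% of the summed FPKM of Atp6v0a1 and Atp6v0a2 in naive control libraries, 60.4% and 61.6% in naive Mct1-deficient libraries, 78.3% and 79.3% in activated control libraries and 77.1%, 76.9% and 77.5% in activated Mct1-deficient libraries. No naive library overlapped an activated one, and the mean share was 17.2 percentage points higher in the 5 activated than in the 4 naive libraries (p = 0.0159 in an exact permutation test, two-sided, which is also the least that 4 against 5 libraries allow; 0.0159 adjusted over the 3 shares tested). The a3 paralog is encoded by Tcirg1, best known from osteoclasts, whose symbol does not match the rule. With it included, the Atp6v0a1 share rose from 26.2% ± 0.963 (SD, n = 4) to 56.9% ± 1.83 (SD, n = 5; exact permutation p = 0.0159), the Tcirg1 share went from 56.8% to 26.8%, and the Atp6v0a2 share was 17.0% and 16.2%. Tcirg1 itself fell from a mean of 61.8 to 20.8 FPKM in control cells. Atp6v1g2 made up 5.87% to 7.81% of the summed G subunit transcripts in naive libraries and 3.20% to 5.72% in activated ones (2.06 percentage points lower, exact permutation p = 0.0159). Within 1 genotype the exact test cannot go below p = 0.333 for control or 0.2 for Mct1-deficient libraries. The sex-linked and myeloid differences between the days also stand beside these shares, and their part in them was not tested.

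**Figure D4:**
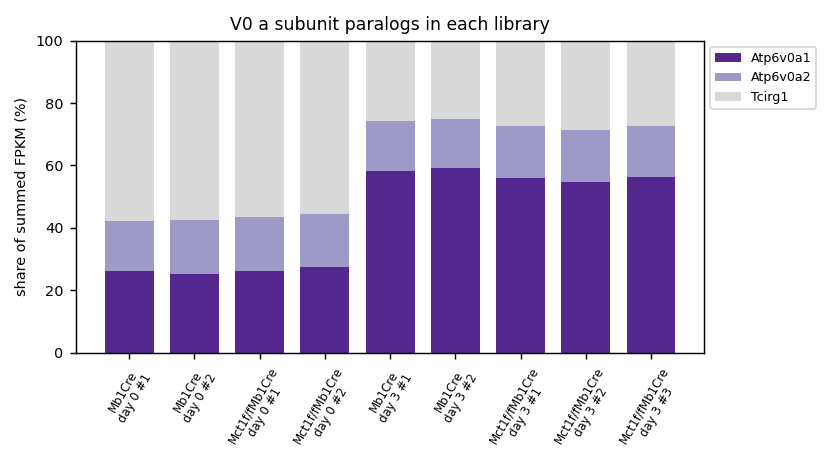
Share of the summed FPKM of the 3 V0 a subunit genes (vertical axis, %) taken by Atp6v0a1, Atp6v0a2 and Tcirg1 in each of the 9 libraries. Tcirg1 takes over 55% in each naive library and Atp6v0a1 takes over 54% in each activated library, in both genotypes, while Atp6v0a2 takes 15.5% to 17.5%.

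On day 3, the genotypes were compared to ask whether loss of Mct1 altered the compartment's genes in activated cells. By the rule with a fold limit, 0 of the 32 members were called (all genes tested: 2.42%). In limma 14 members had an unadjusted p under 0.05. The share of all genes tested at that threshold was not counted, so this count has nothing to be set against. With the adjusted p alone, 7 members passed, 2 higher and 5 lower in Mct1-deficient cells, where 15.2% of all genes tested did (6.03% higher and 9.21% lower). The size of these differences was at most 0.34 on the log2 scale. Median log2 differences were -0.13 for the 15 pump subunits, -0.04 for the cathepsins and -0.01 for all genes tested.

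The largest difference was in Ctsc, which activates granule serine proteases by removing their propeptide. It read 38.31 and 38.62 FPKM in control and 50.62, 46.59 and 49.41 in Mct1-deficient activated cells (0.34 ± 0.04, adjusted p = 7.28e-04). All 3 Mct1-deficient libraries lay above both control libraries, and on day 0 the genotypes overlapped at 78.56 to 82.48 FPKM. Ctsh read 129.97 and 124.01 FPKM in control and 154.36, 143.36 and 145.18 in Mct1-deficient cells (0.22 ± 0.05, adjusted p = 0.00996), also without overlap. Without the second activated control library the difference in Ctsh was 0.18 with an adjusted p of 0.10. In the same libraries the myeloid genes Lyz2 (0.71), Adgre1 (0.68) and Marco (0.84) were higher in Mct1-deficient cells, 3 of the 15 myeloid markers tested, and the summed myeloid level was 18.7 to 20.1 FPKM in control and 28.0 to 33.9 FPKM in Mct1-deficient libraries. Summed dendritic markers were 18.1 to 18.3 FPKM in control and 7.4 to 8.16 in Mct1-deficient libraries, nearly all of it Flt3, the 1 dendritic marker of 5 that was called (-1.21), while Siglech, Itgax, Xcr1 and Clec9a read 0.00 to 0.45 in every activated library. Summed plasma cell markers were 457 to 473 FPKM in control and 379 to 408 in Mct1-deficient libraries; 0 of 5 were called and 2, Jchain (-0.47) and Irf4 (-0.49), passed the adjusted p alone. The part of these genes in the differences of the members was not tested.

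Atp6ap2 was the member with the largest lower level. It read 31.13 and 29.18 FPKM in control and 24.43, 23.25 and 23.73 in Mct1-deficient activated cells (-0.33 ± 0.05, adjusted p = 0.00141). Every Mct1-deficient library lay below both control libraries. Atp6ap1 read 47.20 and 47.61 against 42.78, 42.31 and 42.24 FPKM (-0.16 ± 0.03, adjusted p = 0.0128). The ring subunit Atp6v0c read 215.39 and 197.44 against 177.87, 182.99 and 169.20 FPKM (-0.22 ± 0.05, adjusted p = 0.0176). The stalk subunit Atp6v1g1 read 40.81 and 41.80 against 38.14, 36.42 and 36.43 FPKM (-0.16 ± 0.04, adjusted p = 0.0298), and Lamp2 read 61.26 and 63.12 against 57.54, 53.96 and 49.10 FPKM (-0.22 ± 0.06, adjusted p = 0.0474). The groups did not overlap for any of these 5 genes, nor for Ctsc and Ctsh above. All were picked by the adjusted p, so the lack of overlap is no separate support. How many of all genes tested had no overlap was not counted. The passes of Atp6v1g1 and Lamp2 were lost under each of the 3 other scalings (adjusted p 0.0651 to 0.0890 for Atp6v1g1 and 0.0700 to 0.0885 for Lamp2). Both were also lost without the first or second activated control library or the second or the third activated Mct1-deficient one (0.0857 to 0.176 and 0.0942 to 0.222). The pass of Atp6ap1 was lost without the first (0.0769) or second (0.0900) activated control library, and that of Atp6v0c without the first activated control library (adjusted p = 0.18) or the third Mct1-deficient one (0.0658).

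**Figure D5:**
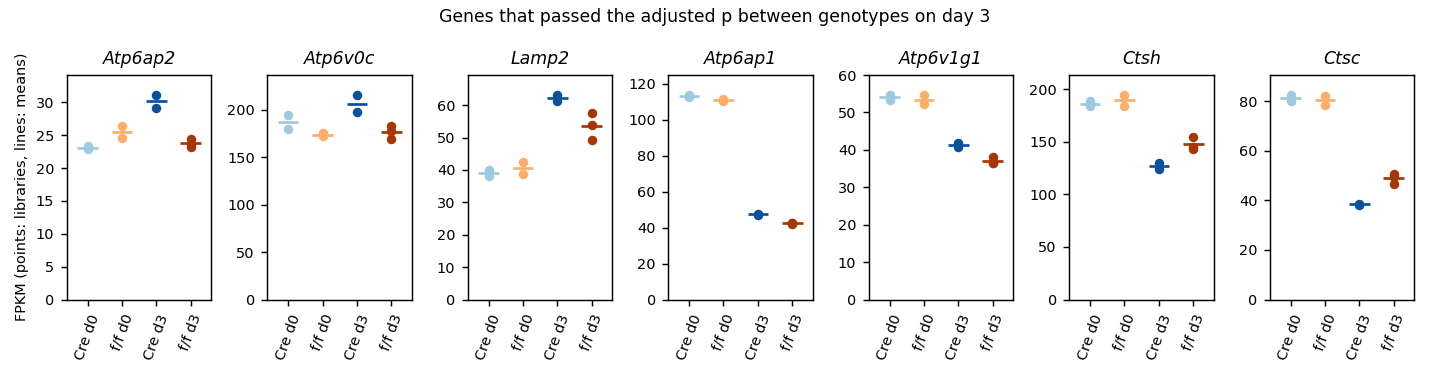
FPKM (vertical axes, from 0) of the 7 genes that passed the adjusted p between genotypes on day 3, with points for libraries and lines for group means; Cre marks Mb1Cre, f/f marks Mct1f/fMb1Cre, and d0 and d3 the days. On day 3 the Mct1-deficient libraries lie below the control libraries for Atp6ap2, Atp6v0c, Lamp2, Atp6ap1 and Atp6v1g1 and above them for Ctsh and Ctsc.

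Whether the genotype difference changed with activation was tested by the interaction. By the rule with a fold limit 0 members were called (all genes tested: 3.23%). In limma 9 members had an unadjusted p under 0.05, a threshold at which the share of all genes tested was not counted. With the adjusted p alone, Atp6ap2 (-0.46 ± 0.07, adjusted p = 0.00448) and Ctsc (0.35 ± 0.07, adjusted p = 0.0100) passed, where 9.42% of all genes tested did (3.82% higher and 5.61% lower). Atp6ap2 was 0.37 higher on day 3 than on day 0 in control cells. In Mct1-deficient cells it was 0.10 lower, which did not pass (limma's adjusted p = 0.0888). Its libraries of that genotype read 26.34 and 24.66 FPKM on day 0 and 23.25 to 24.43 on day 3. Ctsc was lower on day 3 in both genotypes, by 1.06 in control and by 0.71 in Mct1-deficient cells. On day 0, 0 members were called between genotypes (all genes tested: 0.277%), and 0 passed the adjusted p alone (all genes tested: 0.416%). In limma 3 members had an unadjusted p under 0.05, again without a count over all genes tested. Those 3 were Ctsg (0.89, adjusted p = 0.21), Ctsk (-2.56, adjusted p = 0.36) and Atp6ap2 (0.13, adjusted p = 0.38).

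Of the 7 genes that passed on day 3, 3 are X-linked, and these are all the X-linked members tested (3 of 32). Over all genes tested with a known position, 3.11% were X-linked, and among the 1640 of them that passed, 2.62% were. In GRCm38, Atp6ap1 lies on chromosome X from 74297097 to 74304721, Atp6ap2 from 12587759 to 12617051 and Lamp2 from 38399647 to 38456460. The 5 activated libraries were alike in Ddx3y (14.69 to 16.91 FPKM), so the day 3 comparison joins libraries with like levels of this Y-linked gene. Among naive libraries, the one with 31.13 FPKM of Ddx3y read 26.34 FPKM of Atp6ap2, 111.21 of Atp6ap1 and 42.39 of Lamp2, and the 3 others read 22.88 to 24.66, 110.42 to 113.63 and 38.17 to 40.12.

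Other genes of the compartment were taken from lists and compared in control cells by activation, where, as above, 24.8% of all genes tested were called higher and 33% lower. Of 38 acid hydrolases tested, 26 fell and 3 rose, with a median of -0.85. Acp5, tartrate-resistant acid phosphatase, fell from a mean of 212 to 6.46 FPKM and Gm2a, the GM2 activator of ganglioside breakdown, from 130 to 27.6, while Gla, alpha-galactosidase A, rose from 2.22 to 5.02 and Scpep1 from 56.3 to 91.3. Of 27 other proteins of the lysosome membrane or lumen, 16 fell and 4 rose. Slc11a1, a metal transporter of phagocytes, fell by 3.74 on the log2 scale and Cd68, a macrophage glycoprotein, by 3.12, while Slc15a3 (2.25), a peptide and histidine transporter, and Npc2 (0.93), a cholesterol carrier, rose. Of 9 genes of mannose 6-phosphate sorting, 5 fell, among them Sort1 (-2.69) and Gga2 (-1.91), and the receptor gene Igf2r rose (0.83). Sort1, at 0.11 to 0.23 FPKM on day 3, reached the filter on low values only through day 0, which largely set its fall. Several of the genes in these lists are also expressed by macrophages, whose markers fell alongside, as did B cell markers. The part of macrophages in these changes was not tested.

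Of 11 genes for pump assembly and partners, 2 rose and 5 fell (all genes tested: 24.8% and 33%). Ccdc115 (0.67) and Tmem199 (0.54), both V0 assembly factors, rose. Rogdi, a partner of the pump, fell from a mean of 74.2 to 9.34 FPKM (-2.86). Tcirg1 (-1.52), counted in this list although it encodes the a3 subunit itself, also fell. Of 4 cathepsin inhibitor genes tested, Cst7, cystatin F, rose from a mean of 2.66 to 20.4 FPKM and Cstb, cystatin B, from 44.4 to 66.8. Cst3, cystatin C, fell from 335 to 57.6 and Stfa2l1, a stefin, from 4.34 to 0.07. Stfa2l1 reached the filter on low values only through its day 0 level, so its fall was largely set by it. Cst7 was also the single gene of the lysosomal lists called between genotypes on day 3: it read 20.94 and 19.90 FPKM in control and 12.67, 13.45 and 13.78 in Mct1-deficient cells (-0.58 ± 0.09, adjusted p = 0.00162). Cystatin F is known as an inhibitor of cathepsin C, whose gene was higher in the same libraries.

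Transcription of many lysosomal genes is known to be driven by TFEB and its relatives, which bind an E-box named the CLEAR element and are held in the cytosol by mTORC1. Of 13 tested genes for these factors and their docking to mTORC1, 6 fell and 0 rose in control cells (all genes tested: 33% and 24.8%). The largest changes were in Slc38a9, an amino acid sensor on the lysosome (-1.54), and Tfeb (-1.18). Tfeb read 62.80 and 66.62 FPKM in naive control, 61.25 and 63.48 in naive Mct1-deficient, 28.43 and 27.52 in activated control and 35.10, 36.08 and 38.31 in activated Mct1-deficient libraries. Activated Mct1-deficient libraries all lay above the activated control ones (0.37 ± 0.05, adjusted p = 6.77e-04, below the limit of the call).

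Promoters of members are shown for the letters of that E-box. RefSeq promoters (GRCm38.p6, 250 bases before to 50 after the start) were found for 32 of the 42 members; Atp6v0a2, Atp6v0d2, Atp6v1b2, Atp6v1c1, Atp6v1g1, Atp6v1h, Ctsb, Ctse, Ctsh and Ctsw had no entry. TCACGTG, searched on both strands, was present in 7 of the 32 (21.9%) and in 4.29% of 27025 promoters of all genes; among tested genes it was present in 7 of 23 members (30.4%) and in 7.3% of 8790. Its palindrome TCACGTGA, which overlaps it, was in 5 of the 32 (15.6%) and in 1.12% of all. Among tested genes it was in 5 of 23 members (21.7%) and in 2.41% of 8790. The core CACGTG, contained in both, was in 9 of the 32 (28.1%) and in 8.09% of all, and among tested genes in 8 of 23 members (34.8%) and in 12.1%. The full CLEAR palindrome, TCACGTGA with a G before and a C after it, was in 0 of the 32 and in 0.37% of all, and among tested genes in 0 of 23 members and in 0.865% of 8790. Stretches of the 5 promoters with a match upstream of the start, 5′ to 3′ on the gene's strand, are given with the matches in capitals.
Lamp1 (chr8:13159089-13159160, + strand): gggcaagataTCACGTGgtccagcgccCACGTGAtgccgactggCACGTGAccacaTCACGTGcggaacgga
Atp6v0b (chr4:117887332-117887376, - strand): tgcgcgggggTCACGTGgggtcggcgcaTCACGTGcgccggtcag
Ctsd (chr7:142387909-142387936, - strand): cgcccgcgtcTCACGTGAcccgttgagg
Ctsa (chr2:164833750-164833772, + strand): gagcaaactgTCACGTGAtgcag
Atp6v1a (chr16:44139374-44139401, - strand): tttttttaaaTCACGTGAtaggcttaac
Lamp1 held 4 matches, which began 62, 45, 28 and 16 bases upstream of the start, and Atp6v0b held 2, at 37 and 19 bases. Single upstream matches printed for Ctsd, Ctsa and Atp6v1a began 99, 13 and 132 bases upstream. Ctsd had a further match at 245 bases and Ctsa another within the first 50 transcribed bases. The stretches of Ctsa and Atp6v1a lie inside the spans of these genes (chr2:164832872-164841032 and chr16:44085402-44139702). The start used for each of them is therefore an internal one. Atp6v0d1 and Atp6v0e held a match over or just after the start. The 7 genes with the letters did not move together in control cells: Ctsd, Ctsa and Atp6v0b fell, Atp6v1a rose, and Lamp1 (0.12), Atp6v0d1 (-0.40) and Atp6v0e (-0.42) were not called. A match of letters describes the sequence and is no evidence of binding.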

How the data were processed

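FPKM values per gene and library were deposited by the authors, rounded to 2 decimals; the submitters' processing notes name Bowtie2 and GRCm38 (mm10), and the counter and annotation are not given in the sources used here. The labels and the study's methods name different RNA extraction reagents. Sums per library were 477079 to 491459 FPKM on day 0 and 547355 to 563586 on day 3. FPKM give no read counts, whole reads could not be recovered from low values, and depth is therefore unknown.

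Values were not rescaled. limma 3.58.1 (R 4.3.3) was fitted to log2(FPKM + 1) for 10823 genes (mean over libraries 1 FPKM or more), with 4 group means over 9 libraries, eBayes with trend and Benjamini-Hochberg adjustment; the fit was tested on simulated data. Shares were compared by exact two-sided permutation tests (scipy 1.17.1, Python 3.11.15). Figures were drawn with matplotlib 3.10.9. Every member of the rule was accounted for. Named with library values were members that passed the adjusted p between genotypes or in the interaction and the 3 called members per role group that changed most in control cells; of each further list, the 2 genes called with the largest change in each direction and those called between genotypes on day 3. Library values of Ctss, Ctsz, Atp6v0d2, Ctsf, Lamp3, Tfeb and the marker genes were added after they were seen. The members and lists were chosen with earlier results of these data known. Alternatives were other scalings, filters, added values, fold limits, fits, a replicate block and leaving out each library. Same-numbered libraries deviated with correlations of -0.12 to 0.06, so the numbers were not taken as pairs.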

Additional observations from a re-analysis of the deposited data

Results flagged for a closer look

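In 2 genes the change from day 0 to day 3 differed between genotypes by the interaction test of limma, at an adjusted p without a fold limit. For Atp6ap2 the interaction was -0.46 ± 0.07 (SE, adjusted p = 0.00448). All activated control libraries lay above all naive control libraries. In Mct1-deficient cells the activated libraries lay narrowly below the naive ones (at most 24.43 against at least 24.66 FPKM). That fall did not pass (-0.10, limma's adjusted p = 0.0888). The gene was picked by the interaction test, so the order of its libraries is no separate support. For Ctsc it was 0.35 ± 0.07 (adjusted p = 0.0100), with a fall in both genotypes.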

How the results depend on the processing

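With a log2 limit of 1, 12 members were called for activation in control cells and 9 in Mct1-deficient cells. With no limit, 7 were called between genotypes on day 3 (all genes tested: 15.2%) and 2 in the interaction (all genes tested: 9.42%). For the other settings of this section the share of all genes is not given. Their member counts show only how far the counts depend on the setting, and nothing particular to the members. Libraries scaled to the same total gave 2 higher and 20 lower members in control and 0 and 18 in Mct1-deficient cells, median-of-ratios scaling 5 and 13, and 4 and 12; these settings moved the median of all genes from -0.12 to -0.31 and to 0.06 in control cells. Leaving out each library in turn gave 18 to 20 members in control and 16 to 18 in Mct1-deficient activation, 0 to 1 between genotypes on day 0 (Ctsk without the second naive control library, Ctsg without the second naive Mct1-deficient one) and 0 to 2 in the interaction (Ctsk without the second naive control library; Atp6ap2 and Ctsg without the second naive Mct1-deficient one; Atp6ap2 without the second activated control one). The sign turned in control activation for Lamp1 (-0.086 at the same total, -0.12 after quantile normalization), Atp6v0c (-0.061 and -0.099) and, after quantile normalization, Atp6v1f (-0.0041). Ctsc and Atp6ap2 passed the adjusted p between genotypes on day 3 under every alternative run. With the exact test in 1 genotype alone, the Atp6v0a1 share differed by 18.4 (control) and 16.2 (Mct1-deficient) percentage points, with Tcirg1 included by 33.2 and 28.9, and the Atp6v1g2 share by -2.48 and -1.88, where the smallest p is 0.333 and 0.2. With 5 in place of 1 added before the log, Atp6v1a, Atp6v1b2 and Atp6v1g2 in control and Atp6v1a, Atp6v1h, Atp6v1g1 and Atp6v1g2 in Mct1-deficient activation were under the limit. A replicate block gave 20 members in control and 17 in Mct1-deficient activation and 0 between genotypes; the numbers crossed, a pairing added after a negative correlation was seen, gave 20 in control. The block ended the passes of Atp6ap1, Atp6v0c, Atp6v1g1 and Lamp2 between genotypes on day 3. The replicate number of the third activated Mct1-deficient library occurs in no other library. The block therefore gave the same day 3 differences as leaving that library out (-0.156 for Lamp2) and is no separate check of them. Unknown depth limits what can be said of genes near 0 FPKM. The causes of these shifts were not tested.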
